A study of Macaca radiata with 6 samples.

Results

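TAGLN, MYH11, ACTG2 and MCAM are genes of the contractile and mural cells that surround blood vessels, and they were followed in the corpus luteum (CL) of the bonnet monkey after withdrawal of luteal support. Every probe set whose only gene symbol in the platform annotation was one of these 4 names was taken. This gave 12 probe sets of the 52707 tested, with 2 for TAGLN, 4 for MYH11, 3 for ACTG2 and 3 for MCAM. The CET group was 3 CL samples from adult female monkeys given one subcutaneous injection of Cetrorelix (CET), an antagonist of the GnRH receptor, at 150 μg/kg BW on day 7 of the luteal phase. The VEH group was 3 CL samples from females given 5.25% glucose as vehicle (VEH) on the same day. CL were removed 24 h after the injection in both groups, and each sample was read on one Affymetrix array designed for the rhesus macaque, so that probes of a related species were used. According to the submitters, each monkey contributed a CL to both treatments, and the labels do not tell which samples share a monkey. Whole pieces of CL were used, and a value therefore covers all cells of the gland.

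The mature CL is among the most densely vascularised tissues of the body. Its capillaries are lined by endothelial cells and are wrapped by pericytes, which share the basement membrane of the vessel, while arterioles carry a coat of smooth muscle. Pituitary LH maintains the primate CL, and the antagonist CET removes this support by blocking GnRH action at the pituitary. TAGLN codes for transgelin (SM22), an actin-binding protein of smooth muscle that is also made by pericytes and activated fibroblasts. MYH11 codes for the smooth muscle myosin heavy chain, the motor that pulls on actin and the most restricted of the 4 to contractile smooth muscle. ACTG2 codes for gamma smooth muscle actin, best known from visceral muscle. MCAM (CD146) is an adhesion molecule of the cell surface, found on pericytes and smooth muscle and also on endothelial cells.

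The arrays limited what could be seen. The deposited signals had the same trimmed mean, 500, on all 6 arrays, and replicates of a group had a median SD of 0.846 log2 units after quantile normalization. The 3' to 5' ratio of control transcripts, a sign of RNA integrity, was highest in CET replicate 2. For GAPDH it was 5.89, 142.9 and 3.03 in CET replicates 1, 2 and 3, against 7.31, 1.79 and 3.07 in VEH replicates 4, 5 and 6. Every CET array resembled the VEH arrays more than the remaining CET arrays. The mean Spearman rho with the VEH arrays was 0.756, 0.727 and 0.733 for CET replicates 1, 2 and 3. With the remaining CET arrays it was 0.664, 0.710 and 0.709. Of 52707 probe sets, none passed an adjusted p of 0.05 by limma with Benjamini-Hochberg adjustment, a background of 0%, and 2840 had an unadjusted p under 0.05. RPL19, the study's internal control gene, differed by -0.38 ± 0.46 (log2, SE).

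None of the 12 probe sets of the 4 genes passed the adjusted p by limma (smallest adjusted p = 0.827). At an unadjusted p under 0.05, 1 was lower after CET, against 2.75% of all probe sets, and 0 were higher, against 2.63%. In 1 probe set all CET samples lay under all VEH samples, against 5.25% of all probe sets, and in 0 all lay over them, against 5.9%. The mean was lower after CET in 9 probe sets and higher in 3. Over all probe sets tested the median difference was 0.002. Of all 14132 genes, each read at its brightest probe set, 54.7% were lower, which is a share of genes and not of probe sets. Counted over so few probe sets, these numbers do not stand apart from the background. What follows gives log2 signals of single probe sets, where a difference of 1 unit is a doubling, and compares each probe set only with itself. The probe sets of a gene are numbered from the brightest (1) to the dimmest.

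**Figure D1:**
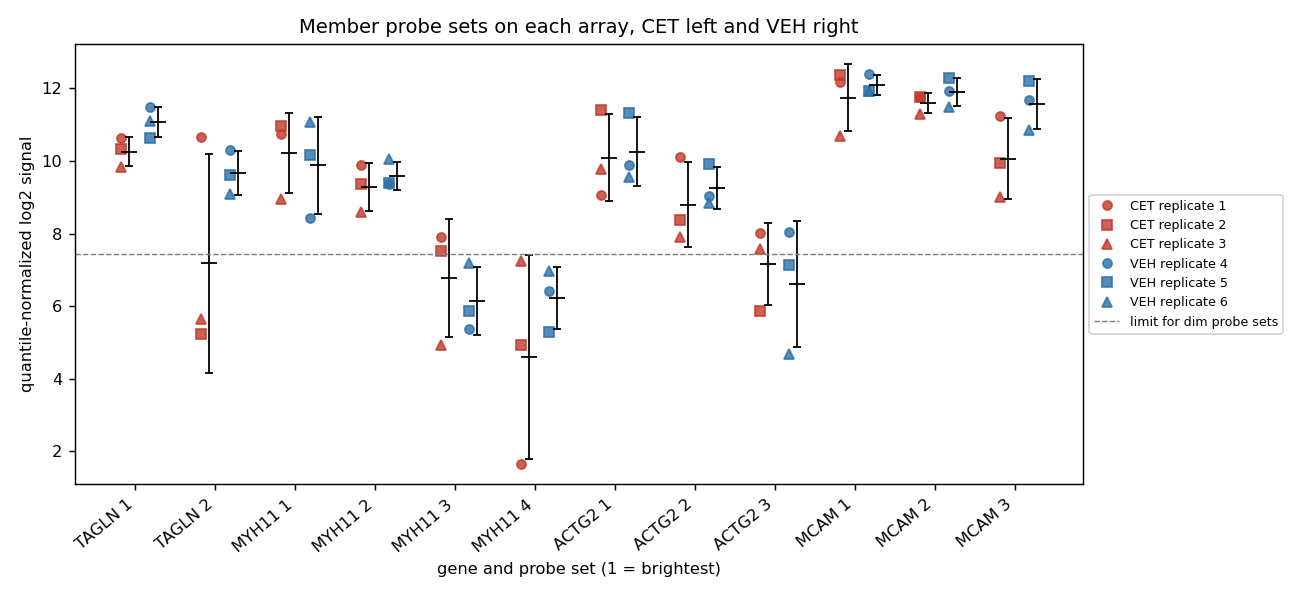
Quantile-normalized log2 signal (vertical axis) of the 12 probe sets of TAGLN, MYH11, ACTG2 and MCAM (horizontal axis, numbered from the brightest in each gene) on the 3 CET arrays (red, left) and the 3 VEH arrays (blue, right). Bars are the mean ± SD and the dashed line is the limit for dim probe sets, 7.43. Groups are separate in TAGLN 1 alone, and in TAGLN 2 the CET samples spread from 5.25 to 10.65.

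TAGLN was the gene with the clearest gap between the groups. Its brightest probe set (MmugDNA.30842.1.S1_s_at, brighter than 93.5% of all probe sets) read 10.63, 10.32 and 9.82 in CET replicates 1, 2 and 3, against 11.48, 10.64 and 11.10 in VEH replicates 4, 5 and 6. All CET samples lay under all VEH samples, but CET replicate 1 and VEH replicate 5 were nearly level. The deposited linear signals were 1491, 1332 and 938 in CET samples, against 2997, 1767 and 2230 in VEH samples. The mean was 10.26 ± 0.41 after CET and 11.07 ± 0.42 after VEH (SD, n = 3 each). The difference was -0.82 ± 0.43 (SE), or 0.568-fold, with a 95% interval of -1.77 to 0.13. It missed the threshold (unadjusted p = 0.085, adjusted p = 0.827 by limma). The exact two-sided permutation p was 0.1, which is the smallest that 3 against 3 samples can give. The groups stayed separate with the signals as deposited, with array medians subtracted and with cyclic loess. They also did with a pseudocount of 16, which keeps the ranks within each array and so could not bring an overlap. In a bulk sample, fewer cells of a type and less RNA per cell cannot be told apart.

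The second TAGLN probe set (Mmu.15501.1.S1_s_at) split the CET samples. It read 10.65, 5.25 and 5.65 in CET replicates 1, 2 and 3, against 10.30, 9.61 and 9.09 in VEH replicates 4, 5 and 6. CET replicate 1 was the highest of all 6 samples, while CET replicates 2 and 3 lay far under every other sample, with deposited signals of 38.1 and 64.6 against 533 for the lowest VEH sample. The spread was wider than in 98.8% of all probe sets. The difference of the means was -2.48 ± 1.17 (SE; 95% interval -5.05 to 0.08; adjusted p = 0.827 by limma; exact permutation p = 0.4). Without CET replicate 1 it was -4.26, still with an adjusted p of 0.225 by limma, the lowest that any alternative gave it.

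CET replicates 2 and 3 were the lowest samples in both TAGLN probe sets. Control transcripts had their largest 3' to 5' ratio in CET replicate 2, and in CET replicate 3 a ratio close to that of VEH replicate 6. The mean log2 ratio of GAPDH, ACTB and EF1A was 2.67, 5.92 and 1.12 in CET replicates 1, 2 and 3. In VEH replicates 4, 5 and 6 it was 3.54, 0.61 and 1.16. When this mean ratio was added to the fit, TAGLN differed by -0.999 ± 0.44 (SE) at the brightest probe set and by -2.28 ± 1.30 at the second. The part of RNA integrity in the TAGLN values was not tested.

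**Figure D2:**
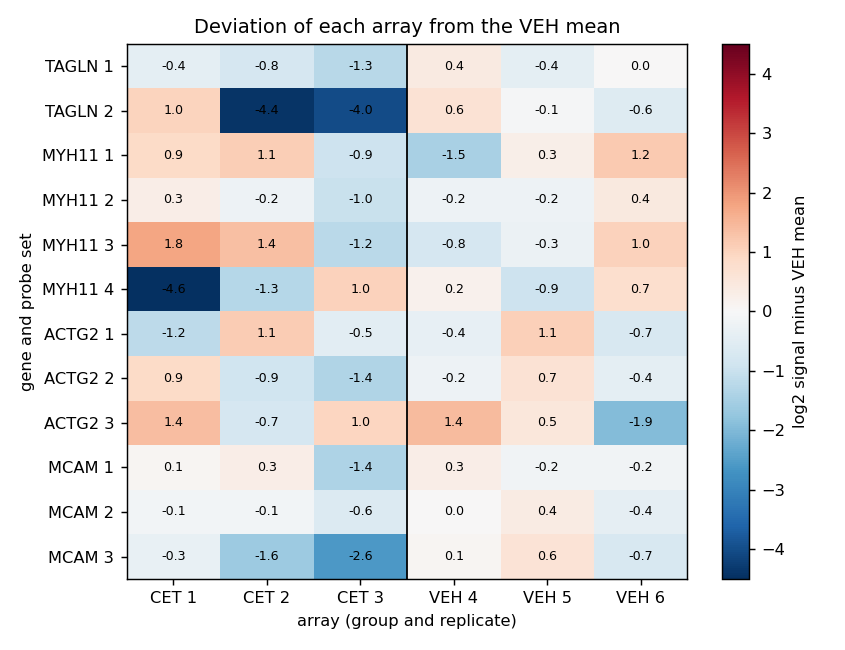
Log2 signal of each array (columns, CET left of the line and VEH right) minus the VEH mean of the same probe set, for the 12 probe sets of the 4 genes (rows), with blue for lower and red for higher. CET replicate 3 was under the VEH mean in 10 of 12 probe sets, CET replicate 2 in 8 and CET replicate 1 in 5. Over all 14132 genes, each read at its brightest probe set, these counts were 7885, 6870 and 6724.

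MYH11 gave no common direction. Its brightest probe set (MmugDNA.33337.1.S1_s_at) read 10.73, 10.97 and 8.96 in CET replicates 1, 2 and 3, against 8.43, 10.15 and 11.07 in VEH replicates 4, 5 and 6. Each group held a low and a high sample, and the ranges overlapped almost entirely. The mean was 10.22 ± 1.10 after CET and 9.88 ± 1.34 after VEH (SD, n = 3 each), with a difference of 0.34 ± 0.72 (SE; 95% interval -1.23 to 1.91; adjusted p = 0.941 by limma; exact permutation p = 0.7). Its sign turned with array weights (-0.11), with the mean over all MYH11 probe sets (-0.24), and without VEH replicate 4 (-0.39) or CET replicate 2 (-0.04).

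The second MYH11 probe set (MmugDNA.33337.1.S1_at) was less variable and read 9.89, 9.36 and 8.59 after CET, against 9.36, 9.38 and 10.04 after VEH. CET replicate 3 was the lowest and VEH replicate 6 the highest, and the other 4 samples overlapped. The difference was -0.31 ± 0.51 (SE; adjusted p = 0.920 by limma), and 0.035 without CET replicate 3. The other MYH11 probe sets (MmugDNA.15137.1.S1_at and MmugDNA.33340.1.S1_at) lay under the limit for dim signals, a mean log2 of 7.43, below which 40% of all probe sets fall. They differed by 0.64 ± 0.97 and -1.62 ± 1.26, in opposite directions. The dimmest read 1.65 in CET replicate 1, a deposited signal of 7.25, and its difference became 0.01 once low values were raised to the 20th percentile of each array.

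ACTG2 had nearly the same mean in both groups. Its brightest probe set (Mmu.4662.5.S1_at) read 9.07, 11.40 and 9.78 in CET replicates 1, 2 and 3, against 9.88, 11.33 and 9.55 in VEH replicates 4, 5 and 6. One sample of each group, CET replicate 2 and VEH replicate 5, stood more than 1 unit over the rest, and the remaining samples overlapped. The mean was 10.08 ± 1.19 after CET and 10.25 ± 0.95 after VEH (SD, n = 3 each). The difference was -0.17 ± 0.66 (SE; 95% interval -1.61 to 1.27; adjusted p = 0.972 by limma; exact permutation p = 0.8), an interval that leaves room for a change of more than a doubling in either direction. The sign turned with array weights (0.06) and without CET replicate 1 (0.33) or VEH replicate 5 (0.36).

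The second ACTG2 probe set (MmugDNA.30998.1.S1_at) read 10.11, 8.36 and 7.91 after CET, against 9.03, 9.91 and 8.83 after VEH. Here CET replicate 1 was the highest sample and CET replicates 2 and 3 the lowest, as in the second TAGLN probe set. The difference was -0.47 ± 0.64 (SE; adjusted p = 0.905 by limma). The third (MmugDNA.411.1.S1_at) was under the dim limit and differed by 0.54 ± 0.997. The actins are close copies of each other, and the files do not tell whether these probes also read RNA of other actin genes.

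MCAM read brightly at all 3 probe sets, and 1 of them gave a larger difference than the others. Its first probe set (MmugDNA.39419.1.S1_s_at, brighter than 98.1% of all probe sets) read 12.18, 12.37 and 10.68 in CET replicates 1, 2 and 3, against 12.40, 11.93 and 11.93 in VEH replicates 4, 5 and 6. CET replicate 3 alone stood low, and the other CET samples lay within the VEH range. The mean was 11.75 ± 0.92 after CET and 12.08 ± 0.27 after VEH (SD, n = 3 each). The difference was -0.34 ± 0.49 (SE; 95% interval -1.41 to 0.73; adjusted p = 0.910 by limma; exact permutation p = 0.8), and 0.20 without CET replicate 3.

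The second MCAM probe set (MmugDNA.8040.1.S1_at) was the steadiest of the 12, with a spread under that of all but 6.8% of probe sets. It read 11.76, 11.77 and 11.28 after CET, against 11.93, 12.27 and 11.48 after VEH. The CET samples sat in the lower part of the VEH range or just under it. The difference was -0.29 ± 0.40 (SE; 95% interval -1.17 to 0.59; adjusted p = 0.905 by limma; exact permutation p = 0.4).

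The third MCAM probe set (MmugDNA.19564.1.S1_s_at) was the only one of the 12 with an unadjusted p under 0.05. It read 11.24, 9.95 and 9.0 in CET replicates 1, 2 and 3, against 11.68, 12.21 and 10.84 in VEH replicates 4, 5 and 6. CET replicates 2 and 3 lay under every VEH sample, and CET replicate 1 lay within the VEH range. The mean was 10.06 ± 1.12 after CET and 11.58 ± 0.69 after VEH (SD, n = 3 each). The difference was -1.51 ± 0.59 (SE; 95% interval -2.80 to -0.23; unadjusted p = 0.025, adjusted p = 0.827 by limma; exact permutation p = 0.2). It kept its sign in all 16 alternatives, from -2.09 to -1.02. Of these, no intensity trend, the methods' t-test and dim probe sets left out cannot change the difference.

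**Figure D3:**
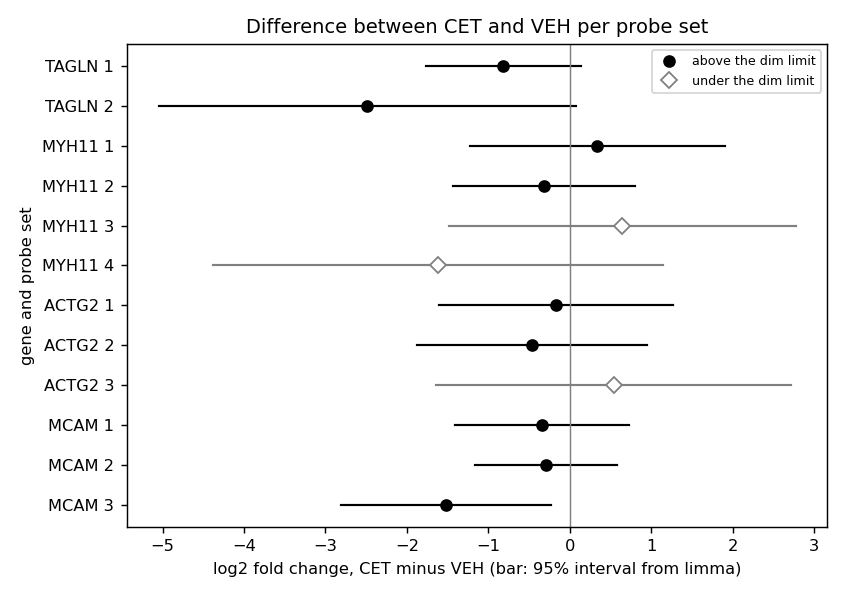
Log2 difference, CET minus VEH (horizontal axis), of the 12 probe sets of the 4 genes (vertical axis), with 95% intervals from limma. Filled points lie above the dim limit and open diamonds under it. The interval of MCAM 3, -2.80 to -0.23, is the only one that does not reach 0, before adjustment over 52707 probe sets.

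The samples differed in where the 12 probe sets stood as a group. In CET replicate 3, 8 of 12 were below the range of the VEH samples, 3 within it and 1 above it, against 29.8% of all probe sets below and 29.4% above. In CET replicate 2, 5 were below, 5 within and 2 above, against 27.6% and 32.0% of all probe sets. In CET replicate 1, 3 were below, 6 within and 3 above, against 26.1% and 27.4%. The mean deviation of the 12 probe sets from the VEH mean was -0.04, -0.52 and -1.07 in CET replicates 1, 2 and 3, against 0.00, 0.12 and -0.13 in VEH replicates 4, 5 and 6. CET replicate 3 had the lowest mean deviation, as it did over all 14132 genes (-0.15, against -0.02 and -0.04 in CET replicates 1 and 2). Without CET replicate 3, 7 of the 12 probe sets still had a lower mean after CET. Over the brightest probe sets alone the deviations were -0.17, 0.44 and -1.01 after CET, against -0.28, 0.19 and 0.09 after VEH, and CET replicate 2 was the highest sample.

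Leaving out single samples showed the same dependence. TAGLN at its brightest probe set stayed lower after CET in all 17 alternatives, but not all of these could change its difference. Low values raised, dim probe sets left out, no intensity trend and the methods' t-test left it at -0.82. Over the samples left out in turn, TAGLN ran from -1.01 to -0.60, MYH11 from -0.39 to 0.995, ACTG2 from -0.84 to 0.36 and MCAM from -0.67 to 0.20. At the brightest probe sets, the sign therefore rested on single samples in MYH11, ACTG2 and MCAM. In TAGLN the groups did not overlap, so that leaving out a sample could not turn the sign. Of the further probe sets, TAGLN 2 (-4.26 to -1.50) and MYH11 4 (-2.98 to -0.15) stayed lower after CET whichever sample was left out. So did ACTG2 2 (-1.16 to -0.02), MCAM 2 (-0.49 to -0.10) and MCAM 3 (-2.09 to -1.02). MYH11 3 stayed higher (0.07 to 1.60), and MYH11 2 (-0.63 to 0.035) and ACTG2 3 (-0.43 to 1.26) turned. MYH11 3, MYH11 4 and ACTG2 3 were dim.

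**Figure D4:**
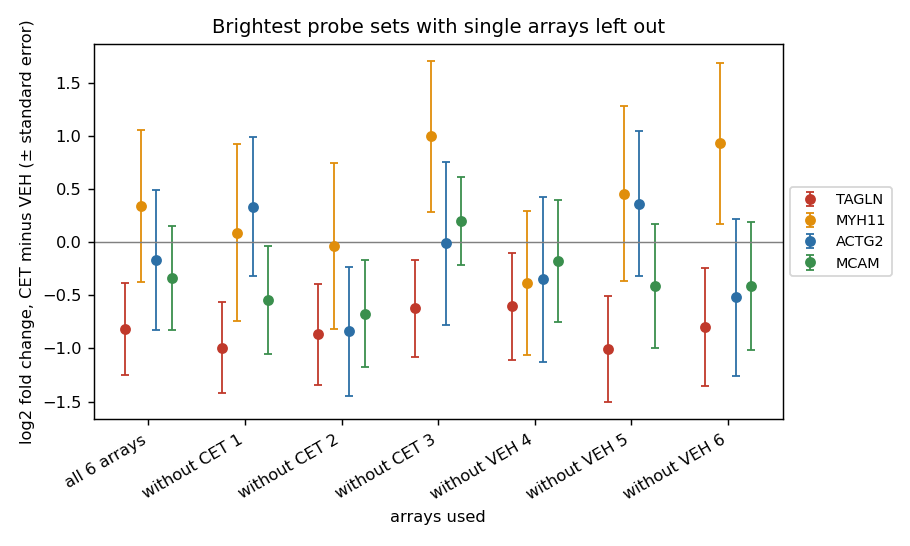
Log2 difference, CET minus VEH, with its standard error (vertical axis), of the brightest probe sets of TAGLN, MYH11, ACTG2 and MCAM with all 6 arrays and with each array left out (horizontal axis). TAGLN stays between -1.01 and -0.60, and the other genes lie on both sides of 0.

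Probe sets of one gene tracked each other to different degrees over the 6 samples, given here as descriptions (Pearson r, the points sharing the same arrays). The 3 MCAM probe sets had r of 0.61, 0.64 and 0.84 with each other. The TAGLN pair had r of 0.75. The 3 brighter MYH11 probe sets had r of 0.67, 0.77 and 0.89, and the dimmest ran against them (-0.44, -0.45 and -0.68). ACTG2 probe sets did not track each other (-0.10, -0.22 and 0.30). Between genes, the brightest TAGLN and MCAM probe sets had r of 0.69, and TAGLN and MYH11 had r of -0.09.

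The genes above the dim limit whose brightest probe sets were most like each member over the 6 samples were found among 10928 genes. For TAGLN they were GRB7 (r = 0.980), CLIP3 (0.979) and LOC696958 (0.975). For MYH11 they were ABLIM1 (0.993), AGPAT4 (0.979) and SMG1 (0.979), and for ACTG2 they were GBX1 (0.995), CPAMD8 (0.994) and FZD10 (0.983). For MCAM they were DDT (0.998), RNF181 (0.997) and ATP5MJ (0.995). With 6 samples such values are common: 133, 51, 47 and 496 genes had r over 0.9 with TAGLN, MYH11, ACTG2 and MCAM. None of the genes named here is a classical smooth muscle or pericyte marker.

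Genes of the contractile apparatus were lower about as often as all genes. Of 32 genes listed, 22 had a probe set above the dim limit, TAGLN, MYH11 and ACTG2 among them. Of these, 8 were higher and 14 lower after CET, with a median difference of -0.17. Over all 10929 genes above the limit the median was -0.13, and 57.7% were lower. None of the 22 had an unadjusted p under 0.05, against 5.29% of all genes above the limit. ACTN1, an actinin that anchors actin at adhesions, read 9.52, 10.44 and 9.31 after CET, against 8.54, 9.02 and 8.65 after VEH. Its groups did not overlap, and the difference was 1.02 ± 0.50 (SE; adjusted p = 0.827 by limma). TNS1, a tensin of focal adhesions, differed by -0.99 ± 0.71, with CET replicate 3 at 6.49 and all other samples above 8. Its other probe set, which was dim, had the opposite sign.

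The kinase arm that holds smooth muscle contracted gave small differences. RHOA, the small GTPase of this arm, differed by -0.51 ± 0.44 and its effector kinase ROCK1 by -0.61 ± 0.46, with 1 of 2 other ROCK1 probe sets of the opposite sign (0.04). MYL9, the regulatory light chain they act on, differed by -0.04 ± 0.56 and the actin nucleator LMOD1 by 0.11 ± 0.48. CNN1, calponin of differentiated smooth muscle, was dim and read 5.30, 7.42 and 9.86 after CET, against 6.46, 6.59 and 6.87 after VEH. Its CET samples lay on both sides of the VEH samples. ACTA2, MYLK and DES, which define smooth muscle in most tissues, were not analysed here under those names.

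Regulators of these genes were mostly lower, none past the threshold. SRF and its partner myocardin switch on many contractile genes through shared promoter elements. Of 20 genes listed, 14 were above the dim limit, 3 higher and 11 lower after CET, with a median of -0.30. Among all genes above the limit 57.7% were lower. The list was not split into genes that raise and genes that lower contractile genes, so the count gives contractile genes no direction. MYOCD differed by -0.72 ± 0.91, with CET replicate 2 lowest at 5.33. PFN1, an actin-binding profilin, was the 1 gene of the 14 with an unadjusted p under 0.05, against 5.29% of all genes above the limit. It read 12.66, 9.26 and 10.37 after CET, against 13.07, 12.53 and 12.48 after VEH, a difference of -1.93 ± 0.70 (SE; unadjusted p = 0.018, adjusted p = 0.827 by limma). CET replicate 1 lay within the VEH range. FHL2, a LIM domain cofactor, differed by -0.85 ± 0.48, GATA6 by -0.81 ± 0.44 and TEAD1 by -0.70 ± 0.58. SRF itself was not analysed here.

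Pericyte markers, MCAM among them, gave mostly small differences. Of 21 genes listed, 15 were above the dim limit, 3 higher and 12 lower after CET, with a median of -0.22. Over all genes above the limit 57.7% were lower, with a median of -0.13. CSPG4 (NG2), the proteoglycan by which pericytes are stained, differed by -0.40 ± 0.53, and 1 of its 2 other probe sets had the opposite sign, 1.16. KCNJ8, a channel subunit of vascular mural cells, differed by -0.22 ± 0.43, and NOTCH3, the receptor needed by arterial smooth muscle, by -0.30 ± 0.48. A further NOTCH3 probe set, also above the dim limit, had the opposite sign and no overlap of the groups. It differed by 1.17 ± 0.54 (SE, unadjusted p = 0.051, adjusted p = 0.827 by limma), so NOTCH3 had no settled direction. GJC1 (connexin 45), a gap junction protein, read 9.68, 10.76 and 10.40 after CET, against 9.12, 9.43 and 8.60 after VEH. Its groups did not overlap, with a difference of 1.22 ± 0.49 (SE; unadjusted p = 0.028, adjusted p = 0.827 by limma), and its dimmer probe sets had smaller differences of the same sign. VTN (vitronectin) differed by -1.34 ± 0.76. PDGFRB and RGS5, the markers most used for pericytes, were not analysed here.

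**Figure D5:**
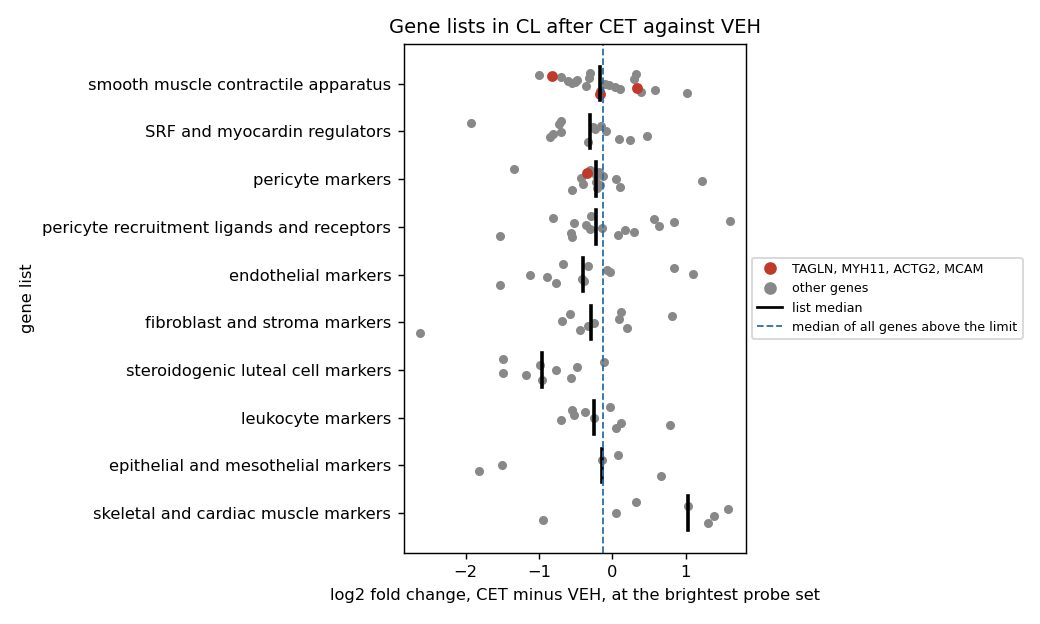
Log2 difference, CET minus VEH, at the brightest probe set (horizontal axis) of each gene above the dim limit in 10 gene lists (vertical axis). Red points are TAGLN, MYH11, ACTG2 and MCAM, black bars are list medians and the dashed line is the median of all genes, -0.13. The medians are -0.17 for contractile genes, -0.22 for pericyte markers and -0.96 for steroidogenic genes.

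Signals by which endothelial cells recruit mural cells went both ways. Of 29 ligands and receptors listed, 16 were above the dim limit, 7 higher and 9 lower after CET, where 57.7% of all genes above the limit were lower. The list median was -0.22, and 0.01 without CET replicate 3. TGFB1, which drives mural differentiation, read 10.46, 11.40 and 11.72 after CET, against 9.60, 9.58 and 9.57 after VEH. All CET samples lay over the tightly grouped VEH samples, with a difference of 1.60 ± 0.45 (SE; unadjusted p = 0.0043, adjusted p = 0.827 by limma). A second, dim TGFB1 probe set ran the other way, by -1.83 and with no overlap, so the gene had no settled direction. Its receptor TGFBR1 differed by -0.81 ± 0.53, with 1 of 2 other probe sets at 0.92. PDGFB, the ligand that draws pericytes to new vessels, differed by 0.63 ± 0.65, and 3 of its 4 other probe sets had the opposite sign. Of these, MmugDNA.30665.1.S1_at, above the dim limit, had all CET samples under all VEH samples. It differed by -1.12 ± 0.48 (SE, unadjusted p = 0.037, adjusted p = 0.827 by limma), so PDGFB had no settled direction either. ANGPT1, made by mural cells, differed by -0.56 ± 0.50, with 1 of 3 other probe sets at 0.69. Its endothelial receptor TEK differed by 0.84 ± 0.59.

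Markers of the other cells of the CL are given beside the 4 genes. Beside the counts here and in the next paragraph, 57.7% of all genes above the dim limit were lower, with a median of -0.13. Endothelial markers, relevant because MCAM is also endothelial, were higher in 2 and lower in 10 of the 12 genes above the dim limit (17 listed), with a median of -0.40, which was 0.08 without CET replicate 3. Their mean deviation from the VEH mean was 0.08, -0.02 and -1.13 in CET replicates 1, 2 and 3, against 0.02, 0.13 and -0.14 in VEH replicates 4, 5 and 6. CET replicate 3, the low sample for the 4 genes, was the low one here too. Over all genes above the dim limit it was also the lowest, at -0.20. CET replicates 1 and 2 were at -0.05 and -0.09 there, and VEH replicates 4, 5 and 6 at 0.001, 0.0004 and -0.002. CDH5 (VE-cadherin), the junction protein of endothelium, read 11.25, 9.11 and 9.63 after CET, against 11.40, 11.93 and 11.24 after VEH, a difference of -1.52 ± 0.55 (SE; unadjusted p = 0.018, adjusted p = 0.827 by limma). CET replicate 1 lay at the low end of the VEH samples and the other CET samples well under them.

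Steroidogenic luteal cell markers were lower in all 9 genes above the dim limit (14 listed), with a median of -0.96, and deviated by -0.20, -1.47 and -1.01 in CET replicates 1, 2 and 3, against 0.12, 0.09 and -0.21 in VEH replicates 4, 5 and 6. STAR, which carries cholesterol into the mitochondrion, differed by -1.49 ± 0.54 (SE; adjusted p = 0.827 by limma). Of 14 fibroblast and stroma markers, 10 were above the limit, 4 higher and 6 lower, with a median of -0.28 (0.06 without VEH replicate 6), and they deviated by 0.00, -0.67 and -0.43 in CET samples, against -0.18, -0.20 and 0.38 in VEH samples. Of 12 leukocyte markers, 9 were above the limit, 3 higher and 6 lower, with a median of -0.25 (0.20 without CET replicate 3). Of 10 epithelial and mesothelial markers, 5 were above it, 2 higher and 3 lower, with a median of -0.14 (0.43 without VEH replicate 4). The part of these cell types in the values of TAGLN, MYH11, ACTG2 and MCAM was not tested.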

How the data were processed

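Total RNA of CL was hybridised to Affymetrix rhesus macaque arrays, one per sample. The deposited values are linear intensity values of probe sets, which the authors made with MAS5 according to the submitters' processing notes; no source used here gives its version or detection calls. Values below 1 were raised to 1, and the log2 signals of 52865 probe sets were quantile-normalized. The 158 controls were then left out, and 52707 were tested in R 4.3.3 by limma 3.58.1 with an intensity trend and Benjamini-Hochberg adjustment at 0.05. Differences are CET minus VEH. An annotation table gave 24956 probe sets a single gene symbol, 361 several and 27390 none. Those with several were not named, and genes were read at their brightest probe set (14132 genes). Exact permutation tests were two-sided. Arrays carry no depth, and their number limits the precision. The labels do not name the monkey behind each sample, so p-values measure only the spread between these samples, which may be technical.

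The members, the gene lists and the tests were chosen with earlier results of these data known. The genes named were the 4 members, mural genes taken whatever their values, up to 4 genes of each list with the smallest unadjusted p, the 3 genes most like each member, and RPL19, of which the text gives a part. PDGFB, MB and further probe sets of the named genes fall outside this rule and were picked with their values known. The fit was tested on simulated data. The alternatives were the signals as deposited, array medians, cyclic loess, a pseudocount of 16, low values raised to the 20th percentile, dim probe sets left out, array weights, no intensity trend, a covariate for the 3' to 5' ratio, the methods' t-test, the mean over the probe sets of a gene, and each replicate left out.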

Additional observations from a re-analysis of the deposited data

How the results depend on the processing

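In every alternative 0 probe sets passed the adjusted p by limma or by the methods' t-test. The count at an unadjusted p under 0.05 was 2840 with all samples and 5086 with array weights. It was 1756 with dim probe sets left out, where fewer probe sets were tested, so that the 2 counts are not of the same total. With a replicate left out it ran from 1694 (without VEH replicate 5) to 7020 (without CET replicate 1). No paired analysis was possible because the labels number CET samples 1 to 3 and VEH samples 4 to 6 and do not tell which samples share a monkey. Signals as deposited moved the median of all probe sets to 0.17, against 0.00 after quantile normalization. TAGLN kept its sign in all 17 alternatives (-1.65 to -0.60), several of which could not turn it. MYH11 was -0.11 with array weights, -0.24 as the mean over its probe sets, and -0.39 to 0.995 with a replicate left out, and its other probe sets reached 0.035 (-0.63 to 0.035 with a replicate left out) and 0.012 (floor at the 20th percentile). ACTG2 was 0.062 with array weights and -0.84 to 0.36 with a replicate left out, its dim probe set -0.43 to 1.26, and MCAM -0.67 to 0.20. With a replicate left out, CNN1 ran from -0.29 to 2.02, MYL9 from -0.35 to 0.55 (0.13 with cyclic loess), MYOCD from -1.67 to 0.35, KCNJ8 from -0.34 to 0.016, PDGFB from -0.0097 to 1.11 and RPL19 from -0.70 to 0.023. CSPG4 was 0.072 with the covariate for RNA integrity (the 3' to 5' ratio). The contractile median was -0.44 and the pericyte median -0.47 with array medians subtracted, and they ran from -0.40 (without CET replicate 1) to -0.017 and from -0.33 (without CET replicate 1) to -0.047 with a replicate left out, both highest without CET replicate 3. Member probe sets lower at an unadjusted p under 0.05 numbered 3 with array medians and without CET replicate 1, 2 with cyclic loess, array weights and the covariate, and 0 without the trend, by the methods' t-test, and without VEH replicate 4 or 5. The cause of these shifts was not tested.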

Other observations

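At their brightest probe sets, genes of striated muscle were mostly higher after CET, none past the adjusted p. Of 12 skeletal and cardiac muscle genes listed, 7 were above the dim limit, 6 higher and 1 lower after CET, with a median of 1.04. Over all genes above the limit 57.7% were lower, with a median of -0.13. Their mean deviation from the VEH mean was 0.26, 0.75 and 1.02 in CET replicates 1, 2 and 3, against 0.01, -0.02 and 0.01 in VEH replicates 4, 5 and 6. CKM, the creatine kinase of muscle, read 9.51, 10.05 and 9.68 after CET, against 8.20, 8.22 and 8.91 after VEH. All CET samples lay over all VEH samples, as in 5.9% of all probe sets. The difference was 1.31 ± 0.49 (SE, unadjusted p = 0.022, adjusted p = 0.827 by limma). TNNT1, the slow skeletal troponin T, differed by 1.58 ± 0.66 (adjusted p = 0.827 by limma), and its groups overlapped. TNNT2, the cardiac troponin T, read 9.64, 9.59 and 9.55 after CET, against 9.35, 8.28 and 8.05 after VEH, a difference of 1.04 ± 0.52. The single gene that was lower was MB (myoglobin), by -0.95 ± 0.78. The other TNNT1 probe set, also above the dim limit, had the opposite sign (-0.74 ± 0.66). So had the other TNNT2 probe sets, at -0.22 above the limit and at -0.21 under it. TNNT1 and TNNT2 therefore had no settled direction.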
